A study of Mus musculus with 30 samples.

Results

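Imprinted genes are genes of which mainly 1 parental copy is transcribed, the other being silenced by marks laid down in the egg or the sperm. They were followed here in the retina of newborn wild-type and mutant mice. The mutants were meant to lose the histone methyltransferase Ezh2 in the ganglion cell lineage, with or without the loss of 1 copy of the G9a gene Ehmt2. A list of 38 well-known imprinted genes was matched by symbol to both deposited tables of expression, and 37 of the 38720 symbols in the tables belonged to it. The remaining gene, Kcnq1ot1, the antisense RNA of the Kcnq1 cluster, was not analysed here. The reads do not tell the maternal copy of a gene from the paternal one. Values are therefore totals over both copies, and what is said of the parental copy of a gene is background.

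In mammals, imprinting control regions carry DNA methylation from 1 parent only, and the zinc-finger protein ZFP57 together with the DNA methyltransferase DNMT1 keeps that methylation in place after fertilisation. Each control region governs a cluster of neighbours, in which long noncoding RNAs and growth-related or neuronal protein genes are often expressed from opposite copies. Ezh2, the catalytic subunit of Polycomb repressive complex 2, methylates histone H3 at lysine 27, while G9a methylates it at lysine 9, and both marks have been found on the silenced copies of some imprinted clusters.

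After papain dissociation of retinas from P0 pups, the projection neurons of the retina, called retinal ganglion cells (RGCs), were bound to magnetic beads through CD90, the product of Thy1. The mutant pups carried Math5Cre, a Cre driven by the Math5 (Atoh7) gene of the ganglion cell lineage, and floxed Ezh2, and the labels give them as either Math5Cre; Ezh2f/f or Math5Cre; Ezh2f/fG9af/+, while the wild-type (WT) pups are given as C57BL/6 with no Cre named. The tables cover 3 groups of 3 poly(A) RNA libraries: the other retinal cells of the mutant, pooled (mutant non-RGC), the RGC fraction of the mutant (mutant RGC) and the RGC fraction of WT pups (WT RGC). The tables name the mutant only as "mut", so which of the mutant genotypes it was cannot be told apart, and no label ties the libraries to separate animals, so that p-values measure only the spread between these libraries.

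The 9 libraries held 10551825 to 12259494 assigned reads, of which the imprinted genes took between 0.283% and 0.39%. Library numbers 1 to 3 order each group by its size factors, highest first, and pair nothing between groups. Values are normalised reads, that is, reads divided by the size factor of the library. The whole-gene reads of Ezh2 were 1944, 1924 and 1851 in mutant RGC libraries 1, 2 and 3, against 1144, 1154 and 1568 in WT RGC libraries 1, 2 and 3, a log2 fold change of 0.58 (limma adjusted p = 0.0292, SE 0.13), so Ezh2 was higher in the mutant. Those of Ehmt2 were 2342, 2891 and 3026 in mutant RGC libraries 1, 2 and 3, against 3712, 3554 and 3839 in WT RGC libraries 1, 2 and 3, a log2 fold change of -0.43 (limma adjusted p = 0.0332, SE 0.11). The floxed exons are not given in the sources used here, and reads over the whole gene check neither the deletion nor the labels. Of 20 ganglion cell markers none was at 0 in all libraries, and their summed level lay at 5725 to 12378 in mutant non-RGC cells, 20949.8 to 34372 in mutant RGCs and 44255 to 53059 in WT RGCs. The sum of 15 proliferation markers lay at 34212 to 35573 in mutant non-RGC cells, 28371 to 29356 in mutant RGCs and 12656 to 21808 in WT RGCs. The fractions and genotypes thus also differed in cell markers, and in bulk libraries fewer cells of a type cannot be told apart from less RNA per cell.

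Several of the genes described below host microRNAs or carry the motif of ZFP57 near their start, and these sequences are given because the results turn on these loci. Meg3, Rian and Mirg are long noncoding RNAs read in the same direction along the Dlk1-Dio3 cluster of chromosome 12, from the maternal copy, and the microRNAs within their spans are thought to be processed from these transcripts. RefSeq (GRCm38.p6) places 3 hairpins inside Rian and 10 inside Mirg. In the mature sequences below, bases 2 to 8, the seed that pairs with targets, are in capitals.
miR-770-5p (in Meg3): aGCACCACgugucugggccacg
miR-370-3p (in Rian): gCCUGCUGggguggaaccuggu
miR-341-3p (in Rian): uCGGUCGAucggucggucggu
miR-1188-5p (in Rian): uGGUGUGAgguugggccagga
miR-453 (in Mirg): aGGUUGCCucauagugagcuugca
miR-496a-5p (in Mirg): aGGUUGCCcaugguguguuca
miR-154-5p (in Mirg): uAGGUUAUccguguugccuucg
miR-377-3p (in Mirg): aUCACACAaaggcaacuuuugu
miR-409-3p (in Mirg): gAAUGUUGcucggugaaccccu
miR-369-3p (in Mirg): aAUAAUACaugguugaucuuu
miR-410-3p (in Mirg): aAUAUAACacagauggccugu
Among all mature sequences of these 3 hosts, miR-453 and miR-496a-5p shared a seed, GGUUGCC, and every other seed occurred in 1 mature sequence only. Poly(A) libraries of this kind read the host transcript and not the mature microRNA, so the levels of the microRNAs themselves were not measured.

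The promoter windows below, from 250 bases before to 50 bases after an annotated start, belong to genes whose level differed between the groups. Each holds TGCCGC, the core that ZFP57 binds when it is methylated, or its reverse complement GCGGCA on the strand shown, and the match is in capitals. Nap1l5 (chr6:58907077-58907376, minus strand) and Meg3 (chr12:109540746-109541045, plus strand) were lower in mutant RGCs, whereas Mest (chr6:30737800-30738099, plus), Plagl1 (chr10:13090582-13090881, plus) and Grb10 (chr11:12037371-12037670, minus) were higher there.
Nap1l5: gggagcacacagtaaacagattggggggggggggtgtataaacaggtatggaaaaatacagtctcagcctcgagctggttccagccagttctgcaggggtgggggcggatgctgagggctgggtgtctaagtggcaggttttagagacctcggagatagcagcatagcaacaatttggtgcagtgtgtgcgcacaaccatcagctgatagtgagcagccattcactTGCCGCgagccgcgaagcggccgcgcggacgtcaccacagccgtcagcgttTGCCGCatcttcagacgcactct
Meg3: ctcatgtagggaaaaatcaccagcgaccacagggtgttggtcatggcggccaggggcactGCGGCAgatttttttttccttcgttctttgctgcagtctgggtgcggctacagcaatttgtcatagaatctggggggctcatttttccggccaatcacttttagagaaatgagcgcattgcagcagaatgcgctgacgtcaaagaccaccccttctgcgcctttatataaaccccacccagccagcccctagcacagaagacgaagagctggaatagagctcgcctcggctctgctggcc
Mest: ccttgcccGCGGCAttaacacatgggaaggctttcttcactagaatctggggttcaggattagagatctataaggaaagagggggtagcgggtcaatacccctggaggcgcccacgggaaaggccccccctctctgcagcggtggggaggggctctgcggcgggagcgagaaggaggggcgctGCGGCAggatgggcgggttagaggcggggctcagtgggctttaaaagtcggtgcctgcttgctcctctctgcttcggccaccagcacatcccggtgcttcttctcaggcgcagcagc
Plagl1: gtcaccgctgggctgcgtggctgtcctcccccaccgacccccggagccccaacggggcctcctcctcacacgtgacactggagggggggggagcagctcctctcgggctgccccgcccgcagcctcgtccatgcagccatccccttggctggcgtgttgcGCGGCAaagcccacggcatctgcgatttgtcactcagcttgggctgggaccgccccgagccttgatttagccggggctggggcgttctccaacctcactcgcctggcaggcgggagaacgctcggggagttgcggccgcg
Grb10: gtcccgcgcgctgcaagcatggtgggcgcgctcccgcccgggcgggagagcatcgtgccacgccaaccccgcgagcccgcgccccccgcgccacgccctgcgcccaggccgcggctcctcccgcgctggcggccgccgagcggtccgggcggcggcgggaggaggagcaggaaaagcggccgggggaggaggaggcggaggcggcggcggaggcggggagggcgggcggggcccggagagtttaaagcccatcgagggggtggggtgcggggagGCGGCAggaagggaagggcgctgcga
On either strand, TGCCGC was present in 11 of 48 windows of the imprinted genes (22.9%), in 3813 of 32851 windows of all genes (11.6%) and in 2663 of 14100 windows of genes tested between the genotypes (18.9%). The windows shown were picked because they hold a match and their genes passed the test between the genotypes given below. Snrpn, which also passed, had a match in a window not shown. No window of Rian, Magel2, Mkrn3, Dio3, Inpp5f or Gnas, which passed as well, held one. Impact and Peg10, which also passed, had no window, as windows were found for 32 of the 38 listed genes only. The 11 windows include a second Mest window (chr6:30737803-30738102), nearly the same as the one shown and with the same matches. Windows of Zdbf2, Nnat, Zim1 and Igf2, which did not pass, did, and a further window each of Meg3, Grb10 and Mest did not. A match in this window is a description and not a binding site, and genes on both sides of the comparison carried one.

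Mutant RGCs were first set against WT RGCs. The long noncoding RNAs Meg3 and Rian of the Dlk1-Dio3 cluster, the ubiquitin pathway genes Magel2 and Mkrn3 and the retrogene Nap1l5 were lower in the mutant, whereas the growth-related genes Grb10, Plagl1 and Mest and the thyroid hormone deiodinase gene Dio3 were higher. Of the 37 genes, 33 reached a mean of at least 10 normalised reads over the 6 libraries and were tested. At a limma adjusted p under 0.05, 5 of them rose (Dio3, Mest, Grb10, Plagl1 and Peg10), 9 fell (Meg3, Rian, Magel2, Nap1l5, Mkrn3, Inpp5f, Gnas, Snrpn and Impact) and 19 did not pass. That is 42.4% of the imprinted genes tested, beside 26.0% of the 15276 genes tested in all, of which 13.7% were higher and 12.3% lower. The median log2 fold change of the 33 genes was -0.21, beside 0.00 over all genes. The groups did not overlap for 7 genes that were higher and 16 that were lower in the mutant, where 51.1% of all genes had groups that did not overlap (26.2% higher and 24.9% lower).

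These calls rest on 3 libraries a side. Without WT RGC library 1, WT RGC library 2, mutant RGC library 2 or mutant RGC library 3, limma called 0 of the 33 genes, while 18, 18, 20 and 19 of them had an unadjusted p under 0.05 and between 3 and 9 of all genes were called. Without mutant RGC library 1, 9 were called, and without WT RGC library 3, 21, which included all 14 of the full comparison. Each of the 14 genes kept its direction whichever library was left out, but this was fixed in advance, since their groups did not overlap. WT RGC library 3 was the WT library closest to the mutant mean for 12 of the 14, the others being Mkrn3 and Peg10, and it had the highest proliferation marker sum of the WT libraries, 21808, beside 12656 and 14017. Markers of several cell types moved with the genotype as well, read against 26.0% of all genes called. Of the proliferation markers 14 of 15 were higher in mutant RGCs, and of the ganglion cell markers 10 of 20 were lower and none higher. Higher in mutant RGCs were also 7 of 12 amacrine and horizontal cell markers, with sums of 10768 to 13876 in mutant RGCs and 7328 to 8300.4 in WT RGCs, and 6 of 13 photoreceptor markers, with sums of 13541 to 20504 in mutant RGCs and 8983 to 12728 in WT RGCs. So were 5 of 16 markers of progenitors and Mueller glia, with sums of 41418 to 42437 in mutant RGCs and 27801 to 39217 in WT RGCs. Of 8 pigment epithelium markers 3 were higher and 1 lower, and of 13 endothelial cell and pericyte markers 1 was higher. The markers of microglia, fibroblasts and mesenchyme, astrocytes, lens and red blood cells had no call by limma between the genotypes. The part of these cell types in the imprinted gene result was not tested. In the authors' deposited table, 14 of the imprinted genes passed an adjusted p under 0.05, 6 higher and 8 lower, beside 11.9% of all genes with a p there. The calls of the authors' deposited table shared 12 genes with those of limma, with Asb4 and Peg12 in place of Impact and Peg10.

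**Figure D1:**
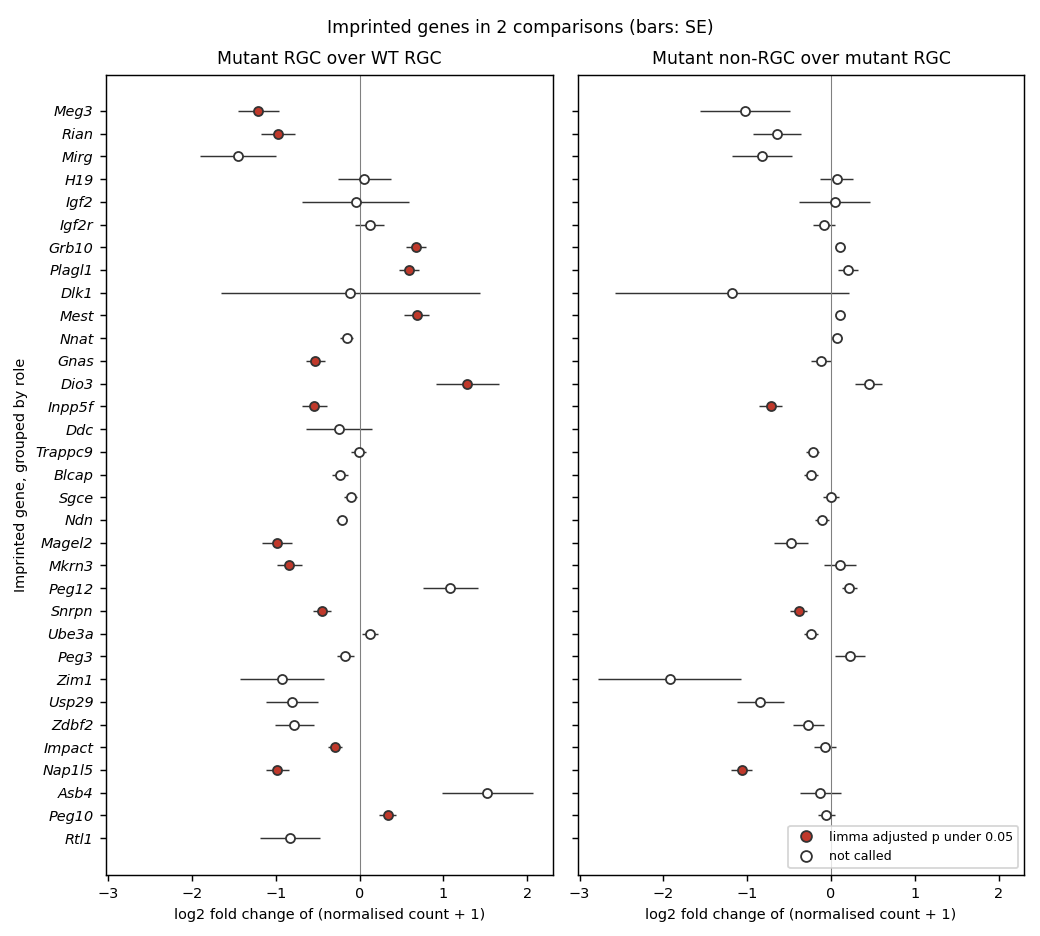
Log2 fold change of each imprinted gene tested, with its standard error, for mutant RGC over WT RGC and for mutant non-RGC over mutant RGC, filled where the limma adjusted p was under 0.05. The left comparison has 14 filled points on both sides of 0 and the right one 3, all below 0.

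By the parental copy that is usually active, 4 of 19 paternally expressed genes rose and 5 fell (47.4% called), where 26.0% of all genes were called. Of 8 maternally expressed genes 0 rose and 2 fell, Meg3 and Rian, and this 25% is near the share of all genes. Among 6 genes whose active copy varies with the tissue or the transcript, 1 rose, Grb10, and 2 fell, Gnas and Inpp5f. The called genes therefore included ones normally read from either copy, and no test of a difference between these classes was made.

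The maternal noncoding RNAs of the Dlk1-Dio3 cluster were all lower on average in the mutant. Meg3 (chr12:109540996-109571729), a nuclear noncoding RNA that also marks the active state of the cluster, had 2247, 3687 and 3479 normalised reads in mutant RGC libraries 1, 2 and 3, against 9529.6, 6452 and 5752 in WT RGC libraries 1, 2 and 3. All mutant libraries lay below all WT libraries, and mutant library 1, the one with the lowest ganglion cell marker sum of its group (20949.8, beside 34372 and 34062), was the lowest. That library also had the highest sums of its group for other cell types, with microglial markers at 7278, beside 2041 and 1831 in mutant RGC libraries 2 and 3, endothelial cell and pericyte markers at 10319, beside 5567 and 5800.5, and fibroblast and mesenchyme markers at 8720.1, beside 1297 and 4855. Its astrocyte and lens marker sums were the highest of the group too, and the part of these cells in the low values was not tested. Meg3 averaged 3138 ± 778 in mutant RGCs and 7244 ± 2009.8 in WT RGCs (SD, n = 3 each), a log2 fold change of -1.21 (limma adjusted p = 0.0268, SE 0.25). Rian (chr12:109603945-109661716), the host of C/D small nucleolar RNAs and of miR-370 and miR-341, had 855, 1375 and 1429 normalised reads in mutant RGC libraries 1, 2 and 3, against 2541, 2362 and 2128 in WT RGC libraries 1, 2 and 3. Here too the groups were apart and mutant library 1 was lowest. Rian averaged 1219.7 ± 317 in mutant RGCs and 2344 ± 207 in WT RGCs (SD, n = 3 each), a log2 fold change of -0.97 (limma adjusted p = 0.0268, SE 0.20).

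Mirg (chr12:109734981-109749458), the downstream host of miR-410 and its neighbours, had 54.1, 86.8 and 99.5 normalised reads in mutant RGC libraries 1, 2 and 3, against 380.1, 224 and 113 in WT RGC libraries 1, 2 and 3. The groups were apart, but WT libraries were scattered, with library 3 close to the mutants. Its log2 fold change of -1.45 (limma adjusted p = 0.056, SE 0.45) missed the threshold. With a library left out the limma adjusted p ranged from 0.0122, without WT RGC library 3, to 0.1633. The authors' deposited table gives an adjusted p of 0.158. Rtl1, a retrotransposon-derived protein gene lying between Meg3 and Rian on the opposite strand, had 10.1, 14.5 and 12.9 normalised reads in mutant RGC libraries 1, 2 and 3, against 33.1, 22.8 and 15.3 in WT RGC libraries 1, 2 and 3. It too missed the threshold, with a log2 fold change of -0.82 (limma adjusted p = 0.1212, SE 0.36). Its annotated span overlaps those of Meg3 by 6830 and of Rian by 474 bases, and with no strand setting given, reads over the shared parts cannot be assigned to 1 of them with certainty.

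Dio3, at the far end of the same cluster, went the other way. It encodes the type 3 deiodinase, which inactivates thyroid hormone and in mouse retina is known to protect developing cones. Dio3 (chr12:110279230-110281097) had 103, 134 and 128 normalised reads in mutant RGC libraries 1, 2 and 3, against 51.7, 28 and 80.7 in WT RGC libraries 1, 2 and 3. Every mutant library was above every WT library. It averaged 122 ± 16.7 in mutant RGCs and 53.5 ± 26.4 in WT RGCs (SD, n = 3 each), a log2 fold change of 1.29 (limma adjusted p = 0.0483, SE 0.38), and without a library the log2 value ranged from 0.89 to 1.64. The call was lost without the filter on low genes (limma adjusted p = 0.0567). Dio3 starts 738.2 kb beyond Meg3. Of neighbours picked by name from the flanks of the cluster, the postsynaptic protein gene Begain, at -508.8 kb from Meg3, was lower (log2 -1.07, limma adjusted p = 0.0431). Wars, further out at -681.0 kb, had log2 -0.11 (limma adjusted p = 0.2887) and Wdr25 had 0.38 (limma adjusted p = 0.0528). Ppp2r5c, at 906.1 kb on the other side, had 0.02 (limma adjusted p = 0.8382). Begain and Wars also stand on the longer list of imprinted genes described below, where Begain is counted among those that fell.

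**Figure D2:**
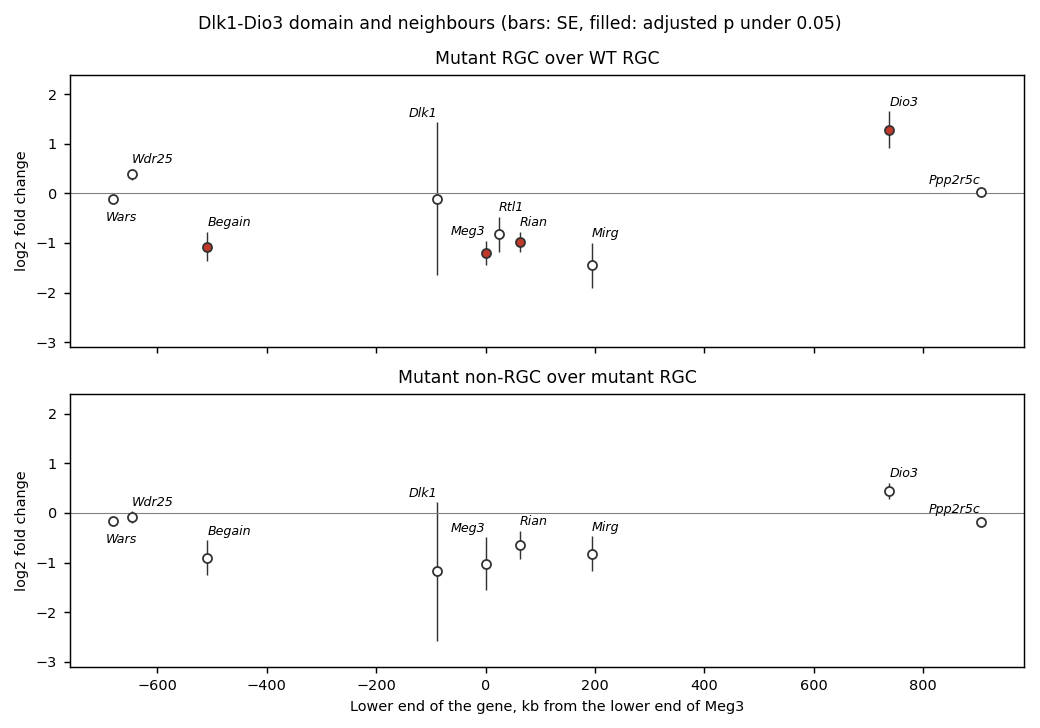
Log2 fold change with standard error of the genes of the Dlk1-Dio3 cluster and of its neighbours, against the distance in kb of the lower end of each gene from that of Meg3, for mutant RGC over WT RGC (top) and mutant non-RGC over mutant RGC (bottom). In the top panel Meg3 and Rian are filled below 0 at -1.21 and -0.97, Begain is filled at -1.07 and Dio3 is filled above 0 at 1.29, while the bar of Dlk1 spans 0.

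Dlk1, the paternally expressed gene at the near end, encodes a transmembrane protein related to Notch ligands. It had 402, 39.5 and 391 normalised reads in mutant RGC libraries 1, 2 and 3, against 349.9, 1051 and 20.7 in WT RGC libraries 1, 2 and 3. The groups overlapped widely, with WT library 2 the highest and WT library 3 the lowest of all 6, and the log2 fold change of -0.11 (limma adjusted p = 0.9633, SE 1.54) depended on single libraries, ranging from -1.71 to 1.09 as libraries were left out. Of the imprinted genes, Dlk1 had the largest SD of log2 values within groups, 2.521 pooled over the 9 libraries, beside a median of 0.237 for the 33 imprinted genes above the filter and 0.176 for all genes above it.

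Libraries high in Dlk1 were also high in 11 markers of fibroblasts and mesenchyme, none of which was at 0 in all libraries. On a common scale for the 9 libraries, Dlk1 was at 20.2, 654 and 37 in mutant non-RGC libraries 1, 2 and 3, at 405, 38.3 and 383 in the mutant RGC libraries and at 353, 1065 and 20.8 in the WT RGC libraries. The summed level of those markers was 1295, 8255 and 1923 in the mutant non-RGC libraries, 8720.1, 1297 and 4855 in the mutant RGC libraries and 5677, 17129.6 and 1030.0 in the WT RGC libraries. In each group the library with the highest marker sum was also the highest in Dlk1, Igf2 and H19. Igf2, the paternally expressed fetal growth factor gene, was at 947, 2149 and 1792 in the mutant non-RGC libraries, 2611, 866 and 1469.8 in the mutant RGC libraries and 1630.4, 3572 and 676 in the WT RGC libraries. H19, the maternally expressed noncoding RNA that shares enhancers with Igf2, was at 1142, 1637 and 1597 in the mutant non-RGC libraries, 1803, 1123 and 1282 in the mutant RGC libraries and 1281, 2150.3 and 902 in the WT RGC libraries. Between the genotypes Igf2 had log2 -0.05, limma adjusted p = 0.961, and H19 had log2 0.06, limma adjusted p = 0.9079, both with groups that overlapped. Zim1, a maternal zinc-finger gene near Peg3, was at 16.4, 97.8 and 6.17 in the mutant non-RGC libraries, 72.2, 85.9 and 104 in the mutant RGC libraries and 214, 306 and 73.4 in the WT RGC libraries, so its highest mutant RGC library was not the one with most mesenchymal markers. The part of mesenchymal cells in these levels was not tested.

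**Figure D3:**
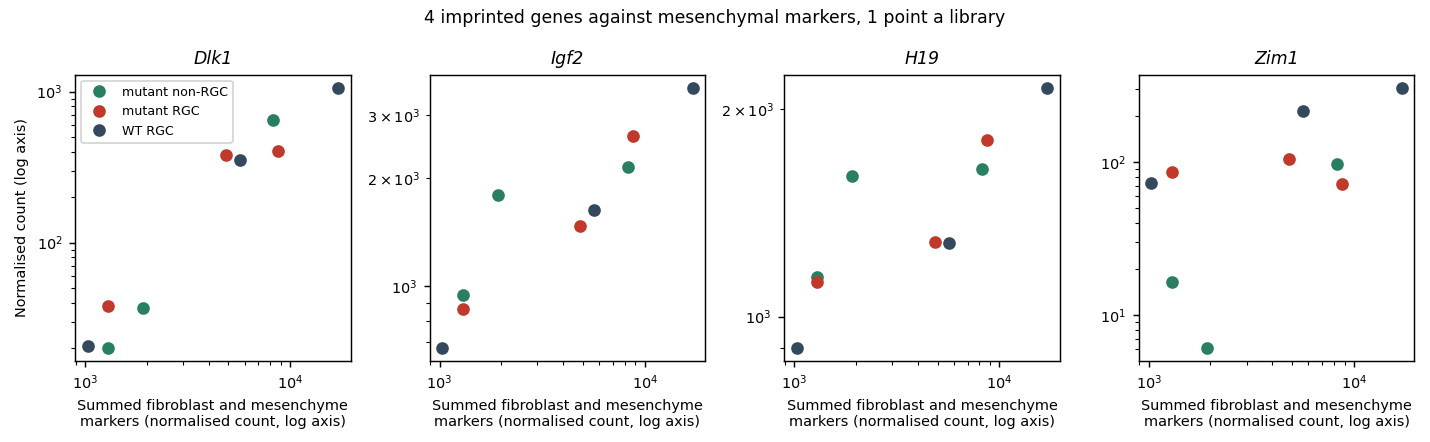
Normalised reads of Dlk1, Igf2, H19 and Zim1 in each of the 9 libraries (log axes), against the summed normalised reads of 11 fibroblast and mesenchyme markers, with the mutant non-RGC, mutant RGC and WT RGC libraries marked. The highest library on both axes for all 4 genes is WT RGC library 2, with a marker sum of 17129.6.

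Of 6 growth-related genes tested, 3 rose and 0 fell, where 13.7% of all genes were higher and 12.3% lower, and no test of a difference from the other imprinted genes was made. Grb10 (chr11:11930499-12037428), an adaptor that dampens signalling from the insulin and IGF1 receptors, is read from the maternal copy in most tissues and from the paternal copy in neurons. It had 4186, 4046 and 4069.8 normalised reads in mutant RGC libraries 1, 2 and 3, against 2262, 2438 and 3109 in WT RGC libraries 1, 2 and 3. All mutant libraries were above all WT libraries, WT library 3 being the closest. It averaged 4101 ± 75 in mutant RGCs and 2603 ± 447 in WT RGCs (SD, n = 3 each), a log2 fold change of 0.67 (limma adjusted p = 0.0244, SE 0.12). Plagl1 (chr10:13090832-13131694), a zinc-finger transcription factor that restrains cell division and regulates other imprinted genes, had 2944, 3320.1 and 3156 normalised reads in mutant RGC libraries 1, 2 and 3, against 1843, 1959 and 2476 in WT RGC libraries 1, 2 and 3. It averaged 3139.9 ± 189 in mutant RGCs and 2093 ± 337 in WT RGCs (SD, n = 3 each), with a log2 fold change of 0.60 (limma adjusted p = 0.0262, SE 0.12) and no overlap between the groups. Mest (chr6:30733506-30748466), a member of the alpha/beta hydrolase fold family expressed in mesoderm and in the growing brain, had 1358, 1411 and 1341 normalised reads in mutant RGC libraries 1, 2 and 3, against 681, 866 and 1054 in WT RGC libraries 1, 2 and 3. The WT libraries were spread more widely than the mutant ones. It averaged 1369.9 ± 36.9 in mutant RGCs and 867 ± 187 in WT RGCs (SD, n = 3 each), a log2 fold change of 0.68 (limma adjusted p = 0.0294, SE 0.15). Igf2r, the receptor that removes IGF2 from the cell surface, had 1877, 1385 and 1359.6 in the mutant RGC libraries and 1439.5, 1669.6 and 1146 in the WT RGC libraries, overlapping (log2 0.12, limma adjusted p = 0.6352).

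Genes of signalling and metabolism split, with 1 higher (Dio3) and 2 lower of 8 tested (37.5%), beside 26.0% of all genes. Gnas (chr2:174284320-174346744), which encodes the stimulatory G protein alpha subunit and further transcripts under their own imprints, had 778, 963 and 994 normalised reads in mutant RGC libraries 1, 2 and 3, against 1322, 1419 and 1184 in WT RGC libraries 1, 2 and 3. The groups were apart. It averaged 912 ± 116 in mutant RGCs and 1309 ± 118 in WT RGCs (SD, n = 3 each), a log2 fold change of -0.53 (limma adjusted p = 0.0295, SE 0.12), summed over all transcripts of the locus. Inpp5f (chr7:128611181-128696436), a phosphoinositide phosphatase gene, had 1553, 2279.9 and 2076 normalised reads in mutant RGC libraries 1, 2 and 3, against 2997, 2987 and 2514 in WT RGC libraries 1, 2 and 3. Mutant library 1 was the lowest of the 6. It averaged 1969.5 ± 375 in mutant RGCs and 2833 ± 276 in WT RGCs (SD, n = 3 each), a log2 fold change of -0.54 (limma adjusted p = 0.0456, SE 0.15), and lost the call without the filter on low genes (limma adjusted p = 0.0522).

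The other genes of this kind did not pass. Nnat, a small membrane protein of the endoplasmic reticulum in neurons, had log2 -0.15, limma adjusted p = 0.1782, and Blcap, within whose annotated span Nnat lies, had log2 -0.23, limma adjusted p = 0.1018. For both, every mutant library was below every WT library. Trappc9, a subunit of a vesicle tethering complex, had log2 -0.01, limma adjusted p = 0.9295. Sgce, which encodes epsilon-sarcoglycan, had log2 -0.10, limma adjusted p = 0.3488. Ddc, the decarboxylase of dopamine and serotonin synthesis, was low, with 9.95 to 13.5 normalised reads in mutant RGCs and 9.81 to 23.9 in WT RGCs (log2 -0.25, limma adjusted p = 0.6589).

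In the Prader-Willi cluster of chromosome 7, 3 of 6 genes fell and none rose by the test, where 12.3% of all genes were lower and 13.7% higher. Magel2 (chr7:62376979-62381640), which regulates ubiquitin ligases in endosomal protein recycling, had 241, 288 and 287 normalised reads in mutant RGC libraries 1, 2 and 3, against 621, 610.5 and 410.0 in WT RGC libraries 1, 2 and 3. All mutant libraries were lower, with WT library 3 closest to them. It averaged 272 ± 27 in mutant RGCs and 547 ± 119 in WT RGCs (SD, n = 3 each), a log2 fold change of -0.98 (limma adjusted p = 0.0245, SE 0.18). Mkrn3 (chr7:62417593-62420153), a ubiquitin ligase known for restraining the onset of puberty, had 172, 135 and 130.3 normalised reads in mutant RGC libraries 1, 2 and 3, against 272, 239.9 and 268 in WT RGC libraries 1, 2 and 3. It averaged 146 ± 23.1 in mutant RGCs and 260.0 ± 17.6 in WT RGCs (SD, n = 3 each), with a log2 fold change of -0.84 (limma adjusted p = 0.0244, SE 0.15) and the groups apart. Snrpn (chr7:59982495-60450177), the gene of the neuronal splicing factor SmN, had 993, 1269.6 and 1222 normalised reads in mutant RGC libraries 1, 2 and 3, against 1578, 1642 and 1504 in WT RGC libraries 1, 2 and 3. It averaged 1162 ± 148 in mutant RGCs and 1574 ± 68.9 in WT RGCs (SD, n = 3 each), a log2 fold change of -0.45 (limma adjusted p = 0.0312, SE 0.10), smaller in size than that of Magel2.

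The rest of the cluster did not pass the test. Ndn, the gene of the growth-restraining MAGE protein necdin, had 1760.2, 1954 and 1926 normalised reads in mutant RGC libraries 1, 2 and 3, against 2109, 2211 and 2204 in WT RGC libraries 1, 2 and 3, a log2 fold change of -0.21 (limma adjusted p = 0.0557, SE 0.07). Its groups were apart by a narrow margin, and upper-quartile scaling brought the limma adjusted p to 0.0336. With a library left out it ranged from 0.0603 to 0.1664, and the authors' deposited table gives an adjusted p of 0.566. Peg12, an intronless relative of the Frat genes of the WNT pathway, lay on the other side, with 594, 692 and 661 normalised reads in mutant RGC libraries 1, 2 and 3, against 241, 219 and 539.8 in WT RGC libraries 1, 2 and 3. All mutant libraries were higher, but WT library 3 was near them and the log2 fold change of 1.08 (limma adjusted p = 0.0522, SE 0.33) missed the threshold. Without WT RGC library 3 the log2 value was 1.49 and the adjusted p 0.001, and the authors' deposited table gives an adjusted p of 0.0237. With another library left out the limma adjusted p was as high as 0.1715. Ube3a, the ubiquitin ligase of Angelman syndrome and the maternal gene of this cluster in neurons, had 1487, 1304 and 1260.1 in the mutant RGC libraries and 1246, 1349 and 1128 in the WT RGC libraries, which overlapped (log2 0.12, limma adjusted p = 0.3648).

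**Figure D4:**
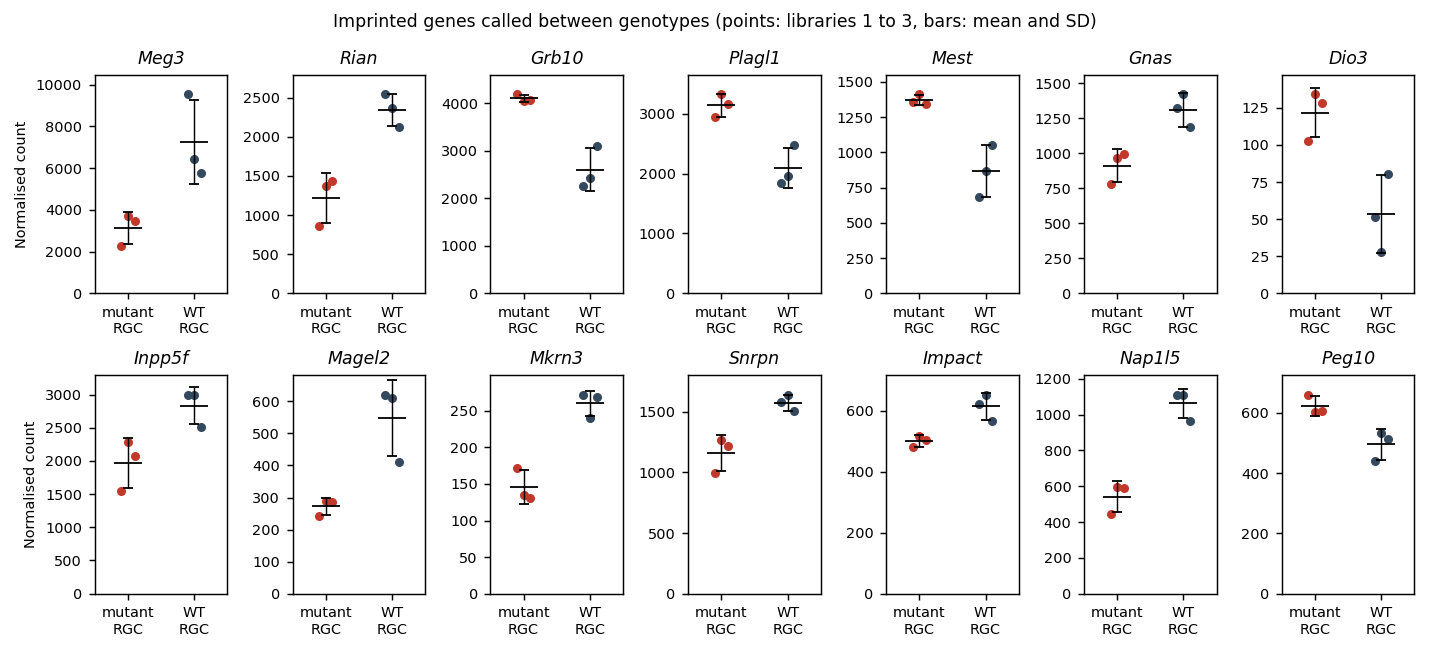
Normalised reads of each of the 14 imprinted genes called between the genotypes, in the 3 mutant RGC libraries (left in each panel) and the 3 WT RGC libraries (right), with points for libraries 1 to 3 and bars for the mean and SD, on linear axes from 0. In every panel the points of the groups are apart, as for Nap1l5 with 443 to 594 in mutant RGCs and 966 to 1111 in WT RGCs.

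Of the genes for nuclear and regulatory proteins, 2 of 7 tested fell and none rose by the test, a share (28.6%) near the 26.0% of all genes. Nap1l5 (chr6:58905233-58907126), a neuronal retrogene of the nucleosome assembly protein family, had 443, 594 and 589 normalised reads in mutant RGC libraries 1, 2 and 3, against 1111, 1110.0 and 966 in WT RGC libraries 1, 2 and 3. Every mutant library was far below every WT library. It averaged 542 ± 85.8 in mutant RGCs and 1062 ± 83.3 in WT RGCs (SD, n = 3 each), a log2 fold change of -0.98 (limma adjusted p = 0.0215, SE 0.13), the smallest adjusted p of the imprinted genes in this comparison. It lies inside Herc3, a HECT-type ubiquitin ligase gene, which was lower as well (log2 -0.44, limma adjusted p = 0.0492). Impact (chr18:12954690-12992950), an inhibitor of the translation kinase GCN2, had 479.5, 518 and 503 normalised reads in mutant RGC libraries 1, 2 and 3, against 622, 652 and 567 in WT RGC libraries 1, 2 and 3. The difference was small with tight groups, 500.1 ± 19.3 in mutant RGCs and 614 ± 43.1 in WT RGCs (SD, n = 3 each), a log2 fold change of -0.29 (limma adjusted p = 0.0469, SE 0.08). Impact lost the call without the filter on low genes (limma adjusted p = 0.0749), with total-count scaling (limma adjusted p = 0.0554) and in the authors' deposited table (adjusted p 0.347).

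The zinc-finger and ubiquitin genes of the Peg3 cluster did not pass. Peg3, a zinc-finger factor of the brain and placenta, had 2359, 2095 and 2316 in the mutant RGC libraries and 2522, 2835 and 2267 in the WT RGC libraries, overlapping (log2 -0.17, limma adjusted p = 0.2273). Zim1, its maternal neighbour, had 71.5, 88.7 and 106 in the mutant RGC libraries and 212, 302 and 73.1 in the WT RGC libraries, the spread being widest in WT (log2 -0.93, limma adjusted p = 0.1977). Usp29, which shares its promoter region with Peg3, had 112, 217 and 209 in the mutant RGC libraries and 332, 375 and 220.3 in the WT RGC libraries, apart but with WT library 3 near the mutants (log2 -0.81, limma adjusted p = 0.0918). Zdbf2, a zinc-finger gene of chromosome 1 with a part in hypothalamic control of growth in mice, had 879, 736 and 657 normalised reads in mutant RGC libraries 1, 2 and 3, against 1486, 1615 and 895 in WT RGC libraries 1, 2 and 3, all mutant libraries being lower. Its log2 fold change of -0.78 (limma adjusted p = 0.0501, SE 0.23) lay just above the threshold, which it passed with TMM scaling, with total-count scaling and with a pseudocount of 4. With a library left out the limma adjusted p ranged from 0.0043 to 0.1675, and the authors' deposited table gives an adjusted p of 0.0778.

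The Peg10 cluster of chromosome 6 had 1 call among 3 genes tested (33.3%), beside 26.0% of all genes. Peg10 (chr6:4747306-4760517), a retrotransposon-derived gene needed in the mouse placenta, had 660.1, 602 and 608 normalised reads in mutant RGC libraries 1, 2 and 3, against 439, 534 and 513 in WT RGC libraries 1, 2 and 3. All mutant libraries were higher. It averaged 623 ± 32.2 in mutant RGCs and 495 ± 49.9 in WT RGCs (SD, n = 3 each), a log2 fold change of 0.34 (limma adjusted p = 0.0497, SE 0.10), and it lost the call under upper-quartile and TMM scaling, without the filter on low genes and in the authors' deposited table (adjusted p 0.244). Asb4, a maternal gene of the cluster that encodes a substrate adaptor of ubiquitin ligases, was low but apart, with 61.4, 49.2 and 48.7 normalised reads in mutant RGC libraries 1, 2 and 3, against 6.82, 23.9 and 32.7 in WT RGC libraries 1, 2 and 3. Its log2 fold change of 1.52 (limma adjusted p = 0.0752, SE 0.54) missed the threshold, while the authors' deposited table gives an adjusted p of 0.00834. With a library left out the limma adjusted p ranged from 0.0332 to 0.1526.

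In both comparisons 4 genes were below the filter of 10 normalised reads. Airn, the antisense RNA that silences Igf2r and its neighbours, had 4.58, 2.89 and 6.96 in the mutant RGC libraries and 1.95, 12.5 and 3.27 in the WT RGC libraries. The trophoblast factor gene Ascl2 had 0, 1.93 and 0.995 in the mutant RGC libraries and 1.95, 2.08 and 3.27 in the WT RGC libraries. Phlda2, which restrains growth of the placenta, had 0.917, 0 and 0 in the mutant RGC libraries and 0.975, 1.04 and 1.09 in the WT RGC libraries. The transporter gene Slc22a18 had 0.917, 4.82 and 3.98 in the mutant RGC libraries and 8.77, 14.5 and 7.63 in the WT RGC libraries. At such levels, mostly below 10 reads, no difference was tested, and 1 read in a library corresponds to about 1 normalised read.

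The fractions of the mutant were compared next, mutant non-RGC cells against mutant RGCs, which shares the mutant RGC libraries with the first comparison. Nap1l5, Inpp5f and Snrpn were lower outside the RGC fraction, by log2 fold changes of -1.07, -0.72 and -0.39, and no imprinted gene was called higher there. Of 31 genes tested, Rtl1 and Ddc being below the filter here, 0 rose, 3 fell (Nap1l5, Inpp5f and Snrpn) and 28 did not pass. The authors' deposited table called 2, Nap1l5 and Inpp5f, beside 6.47% of all its genes with a p. By limma that is 9.68% of the imprinted genes, beside 17.1% of the 15178 genes tested in all, 770 of them higher and 1820 lower. The groups did not overlap for 4 higher and 8 lower imprinted genes, where 37.7% of all genes did not overlap. The median log2 fold change was -0.12, beside 0.01 over all genes.

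Nap1l5 had 248, 272 and 267 normalised reads in mutant non-RGC libraries 1, 2 and 3, against 457, 604 and 603 in mutant RGC libraries 1, 2 and 3. The non-RGC libraries were close together and all below the mutant RGC libraries. It averaged 262 ± 12.8 in mutant non-RGC cells and 554 ± 84.5 in mutant RGCs (SD, n = 3 each), a log2 fold change of -1.07 (limma adjusted p = 0.007, SE 0.13), and it was called whichever library was left out, with adjusted p-values from 0.0007 to 0.0461. Inpp5f had 1258, 1236 and 1132 normalised reads in mutant non-RGC libraries 1, 2 and 3, against 1602, 2318 and 2124 in mutant RGC libraries 1, 2 and 3, with mutant RGC library 1 nearest to the non-RGC cells. It averaged 1209 ± 67.4 in mutant non-RGC cells and 2015 ± 370.2 in mutant RGCs (SD, n = 3 each), a log2 fold change of -0.72 (limma adjusted p = 0.0148, SE 0.13). Snrpn had 861, 903 and 950.4 normalised reads in mutant non-RGC libraries 1, 2 and 3, against 1024, 1291 and 1251 in mutant RGC libraries 1, 2 and 3. It averaged 905 ± 44.6 in mutant non-RGC cells and 1189 ± 144 in mutant RGCs (SD, n = 3 each), a log2 fold change of -0.39 (limma adjusted p = 0.0389, SE 0.10), and the authors' deposited table does not call it (adjusted p 0.0803). Inpp5f and Snrpn lost their calls without mutant RGC library 2, mutant RGC library 3 or mutant non-RGC library 1, which left 1 imprinted gene called each time. Without mutant RGC library 1, 5 genes were called, Blcap and Usp29 joining, and without mutant non-RGC library 3 also 5, with Peg3 and Plagl1 higher, Trappc9 lower and Snrpn no longer called. Without mutant non-RGC library 2, Zim1 took the place of Snrpn among 3 calls. With total-count scaling 5 were called, 2 of them higher (Grb10 and Peg12) and 3 lower. Beside 17.1% of all genes called, the ganglion cell markers were lower in non-RGC cells for 14 of 20 genes, and the microglial markers for 12 of 12, with sums of 54.8 to 93 in mutant non-RGC cells and 1831 to 7278 in mutant RGCs. Higher in non-RGC cells were 9 of 15 proliferation markers, 4 of 16 markers of progenitors and Mueller glia and 1 of 12 amacrine and horizontal cell markers, and 1 of 4 lens markers was lower. The part of these cell types in the imprinted gene result was not tested.

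Genes of the Dlk1-Dio3 cluster were uneven between the non-RGC libraries. Meg3 had 2383, 2589 and 591 normalised reads in mutant non-RGC libraries 1, 2 and 3, against 2318, 3748 and 3561 in mutant RGC libraries 1, 2 and 3. Non-RGC library 3 stood well below the others, the groups overlapped, and the log2 fold change of -1.03 (limma adjusted p = 0.24, SE 0.54) missed the threshold. Rian had 937, 976 and 518 in the mutant non-RGC libraries and 882, 1397 and 1463 in the mutant RGC libraries (log2 -0.64, limma adjusted p = 0.1695), and Mirg had 55.1, 57.4 and 27.6 in the mutant non-RGC libraries and 55.8, 88.2 and 102 in the mutant RGC libraries (log2 -0.82, limma adjusted p = 0.1616). In all of these noncoding RNAs non-RGC library 3 was the lowest of the 6, and it also had the lowest ganglion cell marker sum of all 9 libraries, 5725. Non-RGC libraries 1 and 2 had sums of 10463 and 12378, below the 20949.8 of mutant RGC library 1. In Meg3 and Rian both nevertheless lay above that library, and in Mirg library 2 lay above and library 1 below it. The part of ganglion cells in these levels was not tested. Dio3 was higher in every non-RGC library, with 182, 178 and 149.9 in the mutant non-RGC libraries and 106, 136 and 131 in the mutant RGC libraries, but the log2 fold change of 0.45 (limma adjusted p = 0.0961, SE 0.16) did not pass.

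The growth genes that were higher in mutant than in WT RGCs did not pass the test between the mutant fractions. Grb10 had 4504, 4506 and 4614 in the mutant non-RGC libraries and 4318, 4113 and 4166 in the mutant RGC libraries (log2 0.11, limma adjusted p = 0.1592), apart but by a small margin. Mest had 1499.9, 1518 and 1517 in the mutant non-RGC libraries and 1401, 1435 and 1372 in the mutant RGC libraries (log2 0.11, limma adjusted p = 0.2193), likewise apart. Plagl1 had 4139, 4059 and 3002 in the mutant non-RGC libraries and 3037, 3375 and 3230.1 in the mutant RGC libraries, overlapping (log2 0.20, limma adjusted p = 0.3133). Magel2 had 224, 242 and 147 in the mutant non-RGC libraries and 249, 293 and 294 in the mutant RGC libraries, all lower outside the RGC fraction (log2 -0.48, limma adjusted p = 0.1496). Mkrn3 had 132, 156 and 197 in the mutant non-RGC libraries and 178, 137 and 133 in the mutant RGC libraries (log2 0.11, limma adjusted p = 0.7529), and Gnas had 774, 941 and 856 in the mutant non-RGC libraries and 803, 979 and 1017 in the mutant RGC libraries (log2 -0.12, limma adjusted p = 0.5251), both overlapping. WT non-RGC libraries were not analysed here, so whether a gene differs by genotype outside the RGC fraction was not tested.

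**Figure D5:**
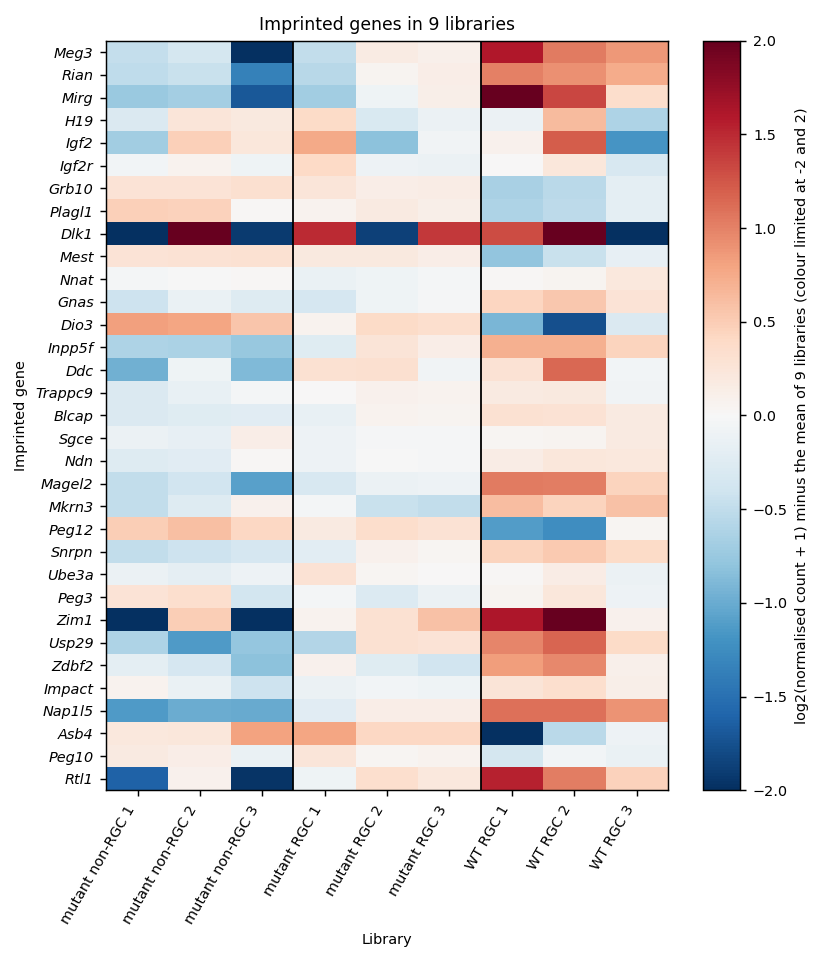
Level of the imprinted genes in each of the 9 libraries, in mutant non-RGC, mutant RGC and WT RGC groups from left to right, as log2 of normalised reads plus 1 relative to the mean of each gene over the libraries, with size factors computed over the 9 libraries, so that values differ slightly from those within a comparison. Colour is limited at -2 and 2. Nap1l5 lies at 238 to 262 in mutant non-RGC cells, 447 to 576 in mutant RGCs and 971 to 1125 in WT RGCs, and Dlk1 varies from library to library within every group.

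Beyond the 38 genes, a longer list of 58 imprinted genes had 51 in the tables. Between the genotypes 41 were tested, of which 4 rose and 8 fell (29.3%), a share near the 26.0% of all genes, with a median log2 fold change of -0.08. Gab1, an adaptor of receptor tyrosine kinases, had log2 0.59 (limma adjusted p = 0.0215), and Osbpl5, a lipid transfer protein gene near the Kcnq1 cluster, had -1.06 (limma adjusted p = 0.0242). Between the fractions 40 were tested, of which 0 rose and 7 fell (17.5%), a share near the 17.1% of all genes. Pde4d, a cyclic AMP phosphodiesterase gene, had log2 -0.59 (limma adjusted p = 0.0071) and Ampd3, an AMP deaminase gene, had -1.51 (limma adjusted p = 0.0173). The serotonin receptor gene Htr2a, counted among the 7, was low. It had 4.01, 4.03 and 2.13 in the mutant non-RGC libraries and 20.8, 16.7 and 13.2 in the mutant RGC libraries (log2 -2.04, limma adjusted p = 0.0214). Its mean was 3.39 in mutant non-RGC cells, below the level of the filter, and 16.9 in mutant RGCs. Htr2a thus passed the filter only through the mutant RGC libraries. Its non-RGC values rest on 4, 4 and 2 reads, so the size of its difference is uncertain. Herc3, the host gene of Nap1l5, had log2 -0.43, limma adjusted p = 0.0231.

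Of 20 tested genes that establish or maintain imprints, 7 rose and 2 fell between the genotypes (45%), beside 26.0% of all genes, of which 13.7% were higher and 12.3% lower. The counts include the genes altered in the mutant pups, Ezh2 among the 7 and Ehmt2, altered in 1 of the possible mutant genotypes, among the 2. Smchd1, a chromosomal protein that keeps some imprinted clusters silent, had 2324, 2191 and 2172 normalised reads in mutant RGC libraries 1, 2 and 3, against 1576, 1675 and 1524 in WT RGC libraries 1, 2 and 3, a log2 fold change of 0.49 (limma adjusted p = 0.0215, SE 0.07). Zfp57, whose protein guards the methylated imprint and which was chosen after its values were seen, had 524, 629.5 and 757 normalised reads in mutant RGC libraries 1, 2 and 3, against 1305, 975 and 1029.5 in WT RGC libraries 1, 2 and 3, a log2 fold change of -0.80 (limma adjusted p = 0.0268, SE 0.17). Zfp57 was lower in every mutant library. Dnmt1, added outside the naming rule because its protein is named beside ZFP57 above, went the other way. It was higher in every mutant library (log2 0.31, limma adjusted p = 0.0433, SE 0.09), while the authors' deposited table gives an adjusted p of 0.206. Trim28 (log2 0.06, limma adjusted p = 0.5499) and Zfp445 (log2 -0.02, limma adjusted p = 0.8411), also added, did not pass. Dnmt3b, a de novo DNA methyltransferase gene, had 323, 342 and 338 normalised reads in mutant RGC libraries 1, 2 and 3, against 177, 152 and 239 in WT RGC libraries 1, 2 and 3, a log2 fold change of 0.84 (limma adjusted p = 0.027, SE 0.18). Between the fractions 2 rose and 1 fell of 20 (15%), beside 17.1% of all genes. Of these, Dnmt3b had log2 0.55, limma adjusted p = 0.0231 and Ezh2 had log2 0.25, limma adjusted p = 0.0242. The proliferation markers were higher for 14 of 15 genes between the genotypes and for 9 of 15 between the fractions, and their part in these changes was not tested.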

How the data were processed

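Poly(A) RNA of RGC and non-RGC fractions of P0 retina was sequenced as single reads of 75 cycles, per the labels' protocols and design text. Per the submitters' processing notes, STAR 2.3, featureCounts, DESeq and FastQC were used with genome build mm10, and no strand setting is given. Per the file names, only primary alignments without duplicates were counted, which limits the counts of short abundant transcripts.

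Per the file headers, each table lists 38720 symbols with the authors' normalised mean count over all libraries and per condition (with no value per library), the deposited ratio of the conditions, its log2 value, and the authors' p-value and adjusted p-value. The reads of each library were worked out from these means, since a mean of 3 libraries is a sum of whole reads divided by size factors. This gave unique solutions for 99.975% to 100% of genes that were not at 0, and all 23953 mutant RGC genes compared came out with the same reads from both tables. The recovered libraries cannot be tied to single samples or to replicate numbers. Whether a gene was at 0 showed which condition is shared: the same 14765 genes were at 0 in the mutant RGCs of both tables.

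After division by the authors' size factors, genes averaging 10 or more over the 6 libraries compared were fitted with limma 3.58.1 (variance trend, R 4.3.3) on log2(value + 1), a scale that understates changes of low genes, with Benjamini-Hochberg adjustment over all genes tested and calls at an adjusted p under 0.05. The fit was tested on simulated data. Each table has its own size factors, so mutant RGC values differ slightly between the comparisons, and levels over 9 libraries use factors computed over the 9. Positions, microRNAs and promoter windows are RefSeq's on GRCm38.p6.

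The imprinted genes and all gene lists were chosen with earlier results of these data known. Every imprinted gene is named. From the other lists, those with the smallest adjusted p in either comparison are named, up to 6 other imprinted and 3 maintenance genes, with exceptions marked in the text. Alternatives were another pseudocount, no filter, other scalings, voom weights, the authors' adjusted p and each library left out. The 12 ChIP and input samples and the other 9 RNA libraries were not analysed here.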

Additional observations from a re-analysis of the deposited data

How the results depend on the processing

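Between the genotypes, the number of imprinted genes called was 14 in the comparison as reported and 10 to 15 under other pseudocounts, no filter, other scalings, voom and the authors' adjusted p, but 0 to 21 with a library left out. Between the fractions it was 3 as reported, 5 with total-count scaling and 2 to 3 under the other settings, and 1 to 5 with a library left out. Fewer libraries give less residual freedom, and the cause of the difference between libraries was not tested. No imprinted gene changed sign under any of these settings in a comparison in which it was called. With a library left out this was fixed in advance, since the groups of these genes did not overlap. The genes that did change sign in a comparison were near 0 or uneven between libraries there. Between the genotypes, H19 was at -0.01 by the authors' deposited log2 values and Trappc9 at 0.03 with total-count scaling. Between the fractions, Igf2 was at -0.01 by the authors' deposited log2 values, Peg10 at 0.01 with total-count scaling, and Sgce at 0.06, 0.03, 0.01 and 0.0 with total-count, upper-quartile and TMM scaling and by the authors' deposited log2 values. With a library left out, the log2 fold change between the genotypes ranged from -0.5 to 0.1 for Ddc, -1.71 to 1.09 for Dlk1, -0.23 to 0.39 for H19, -0.66 to 0.54 for Igf2, -0.03 to 0.25 for Igf2r and -0.1 to 0.03 for Trappc9. Between the fractions it ranged from -0.07 to 0.25 for H19, -0.34 to 0.43 for Igf2, -0.17 to 0.07 for Igf2r, -0.19 to 0.06 for Impact, -0.04 to 0.24 for Mkrn3, -0.12 to 0.04 for Peg10 and -0.09 to 0.06 for Sgce. No paired analysis was possible because the tables hold no replicate numbers. Genes under 10 normalised reads were too shallow to test.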

Other observations

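Some imprinted genes share their annotated span with another gene, and these pairs, chosen after their values were seen, are given as values. Mest overlaps Copg2, which encodes a coatomer subunit, by 913 bases. Copg2 had log2 0.31 for mutant RGC over WT RGC (limma adjusted p = 0.0255) beside 0.68 for Mest (limma adjusted p = 0.0294). Between the mutant fractions Copg2 had 0.01 (limma adjusted p = 0.9652) and Mest 0.11 (limma adjusted p = 0.2193). Nap1l5 shares 1894 bases with its host Herc3, and both were lower in both comparisons. Airn overlaps Igf2r by 28396 bases and was below the filter, whereas Igf2r was tested. Snurf, which lies within the span of Snrpn, was listed at 0 in all libraries. With no strand setting given, reads on shared bases cannot be assigned to 1 gene of such a pair with certainty.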
